A study of Mus musculus with 18 samples.

Results

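In liver RNA of mice, 324 stretches of the genome carried an MDA5-protected peak in every one of 6 libraries, with and without the RNA-editing enzyme ADAR1. They were selected on measured values. All peaks of the 6 MDA5-protected libraries were pooled, overlapping peaks were joined strand by strand into 4770 merged regions, and the regions overlapped by a peak of each library were kept. These shared regions are 6.79% of the merged regions. The livers came from mice 8 to 9 days old of 2 genotypes, Adar-/-; Mavs-/- (called editing-deficient) and Mavs-/-, with 3 replicates each, described by the study as biological. All of the mice lacked MAVS, the adaptor through which MDA5 signals, so the controls were not wild-type although their sample titles say so. There were 3 fractions per genotype and replicate: RNA treated with RNase A and T1 after incubation with MDA5 (MDA5-protected), RNA given the same RNases but no MDA5 (RNase only), and total RNA left intact (Input RNA). The MDA5 was recombinant mouse protein made from a cDNA that lacked the N-terminal CARD domains.

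MDA5, the product of Ifih1, is a cytoplasmic sensor that assembles along double-stranded RNA. RNase A and RNase T1 cut single-stranded RNA, so a stretch can persist through digestion because protein covers it or because it is itself folded or paired. The RNase only fraction records the latter, and Input RNA records abundance. ADAR1, encoded by Adar, edits paired adenosines into inosines and is known to keep the cell's own transcripts from being sensed by MDA5.

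The sequences shown here are examples of some kinds of shared region. None is shown for introns or for regions without a gene on either strand, where no region had a sequence for at least 80% of its bases. All are on GRCm38, 5' to 3' on the strand of the region, assembled from GENCODE M21 transcripts and RefSeq promoter windows of the same build, and capitals mark the bases that peaks covered in all 6 MDA5-protected libraries. The first lies in an exon near the start of Eif3f, which encodes a subunit of a translation initiation factor, at chr7:108934648-108934719, plus strand. The next are the overlapping regions on both strands of an exon near the start of Pdcd7, which encodes a protein of the minor spliceosome, at chr9:65346402-65346563 on the plus strand and chr9:65346391-65346563 on the minus strand. Exon 14 of Ifih1 follows on both strands, at chr2:62598786-62598976, where the gene lies on the minus strand. The last example is a short region on the strand opposite a gene, Smarca2, which encodes a chromatin remodelling ATPase. It lies at chr19:26605732-26605810 on the minus strand.
Eif3f: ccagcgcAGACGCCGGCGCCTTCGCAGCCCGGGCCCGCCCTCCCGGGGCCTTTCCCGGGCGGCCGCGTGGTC
Pdcd7, plus strand: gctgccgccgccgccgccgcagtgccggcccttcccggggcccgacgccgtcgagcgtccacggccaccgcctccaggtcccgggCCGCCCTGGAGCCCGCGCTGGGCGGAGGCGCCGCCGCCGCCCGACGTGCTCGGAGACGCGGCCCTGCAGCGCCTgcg
Pdcd7, minus strand: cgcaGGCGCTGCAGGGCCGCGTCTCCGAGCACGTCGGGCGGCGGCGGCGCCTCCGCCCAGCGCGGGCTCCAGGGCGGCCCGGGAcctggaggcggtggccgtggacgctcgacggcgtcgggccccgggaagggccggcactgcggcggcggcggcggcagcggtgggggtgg
Ifih1 exon 14, strand of the gene: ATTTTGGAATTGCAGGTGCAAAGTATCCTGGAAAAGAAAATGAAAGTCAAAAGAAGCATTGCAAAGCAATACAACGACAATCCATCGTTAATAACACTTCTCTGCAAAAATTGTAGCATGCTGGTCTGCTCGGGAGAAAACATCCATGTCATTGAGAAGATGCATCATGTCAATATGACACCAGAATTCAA
Ifih1 exon 14, other strand: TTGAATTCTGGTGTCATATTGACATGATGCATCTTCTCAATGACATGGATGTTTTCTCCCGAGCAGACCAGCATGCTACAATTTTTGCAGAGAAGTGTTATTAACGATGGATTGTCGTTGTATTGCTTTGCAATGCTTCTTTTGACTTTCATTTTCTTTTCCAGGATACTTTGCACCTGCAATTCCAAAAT
Smarca2, other strand: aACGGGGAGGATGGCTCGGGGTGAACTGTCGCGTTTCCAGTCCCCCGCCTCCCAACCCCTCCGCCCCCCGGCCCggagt
G and C made up 83.3% of the Eif3f region, 84.0% and 83.8% of the Pdcd7 regions, 72.2% of the Smarca2 region and 37.7% of exon 14 of Ifih1. The Eif3f region held 12 CpG dinucleotides and the Pdcd7 plus-strand region 30, against 3 in exon 14 of Ifih1. Over all shared regions a check of GC content is void, because only 99 of 324 had a sequence for at least 80% of their bases. Of the 31 antisense regions 8 had such a sequence, with a median of 80.1% G and C. The Smarca2 region was the lowest of them.

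The MDA5-protected libraries held between 1180 and 2868 peaks, the RNase only libraries between 3150 and 6094 and the Input libraries between 4326 and 8948. Without read counts in the lists, depth is unknown. Longer lists came from editing-deficient MDA5-protected replicates 2 and 3, with 2768 and 2868 peaks, against 1636 in the first and 1829, 1220 and 1180 in the Mavs-/- libraries. Of the exonic peaks at places with genes on a single strand, 97.9% or more lay on the annotated strand in each Input library, against 58.7% to 71.3% in the MDA5-protected libraries. In the RNase only libraries it was 92.0% to 97.0% in 5, and 67.6% in the third Mavs-/- library, which stood apart. Whether strand assignment has a part in the antisense regions was not tested. A pair of other RNase only libraries stood apart at the shared regions. The first editing-deficient RNase only library overlapped 26.5% of them, against 60.2% to 66.4% in the other 5, and it was the missing library for 84 of the 90 regions with an RNase only peak in 5 libraries. The first Mavs-/- RNase only library is described below with Ifih1.

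Regions of all 6 libraries differed from the other merged regions in several properties. The opposite-strand peaks among these come from the same 6 lists that chose the regions. Of all merged regions 2243 were found in a single library, 1000 in 2, 601 in 3, 317 in 4 and 285 in 5. An MDA5-protected peak on the opposite strand lay over 70 of the 324 shared regions (21.6%), against 8.24% of all merged regions, and in 29 of them it was there in every library. Of those 70, 15 were mitochondrial and 14 at Ifih1, both described below. A gene start lay within 500 bp of 89 shared regions (27.5%), against 13.6% of all merged regions. Of the 89, 74 lay outside the mitochondrial genome and Ifih1. They were 22.8% of the shared regions, against 13.0% of all merged regions for the same group. An Input peak in at least 1 library overlapped 58 shared regions (17.9%), 15 of them mitochondrial, against 6.44% of all. The change was not graded for each of them. The share with an opposite-strand peak was 5.75% for regions of a single library, 7.3% for 2, 11.3% for 3, 8.52% for 4 and 9.12% for 5, and the Input share stayed between 5.05% and 5.84% from 1 to 5 libraries. Regions are not replicates, so these shares are descriptions and carry no test.

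**Figure D1:**
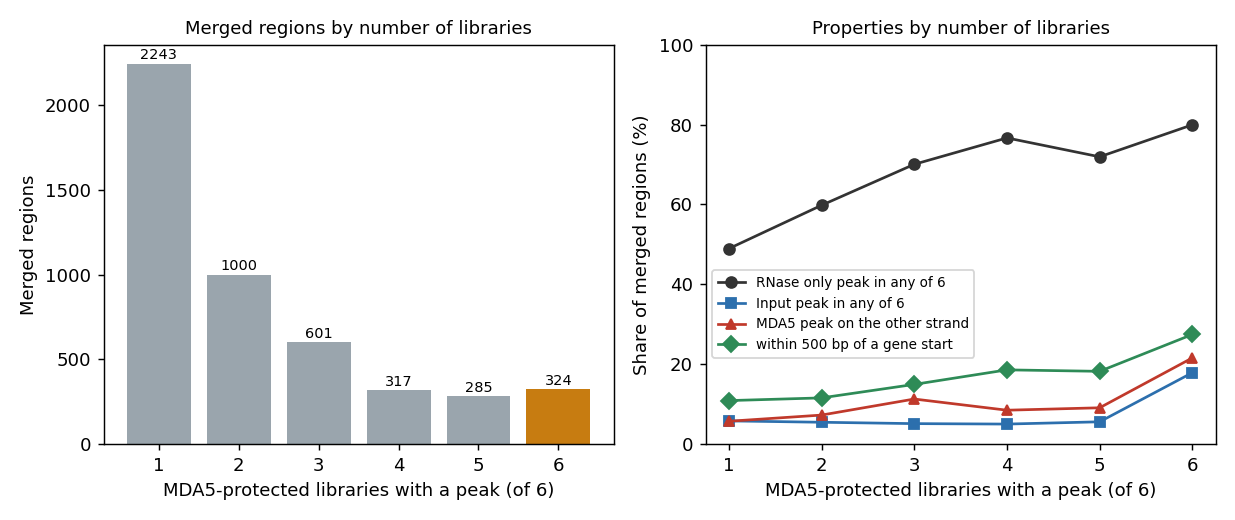
Left, the number of merged regions (bars) by the number of MDA5-protected libraries with a peak; right, the percentage of those regions with each of 4 properties (lines). The 324 regions shared by all 6 libraries, in orange, have the highest share of each property, with 79.9% overlapping an RNase only peak.

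By position, 138 of the shared regions lay in introns and 121 outside any gene on their strand (called intergenic, and including those antisense to a gene). There were 22 in 5' UTRs, 16 in 3' UTRs and 27 in other exonic sequence. The intronic share was 42.6% (95% Clopper-Pearson interval 37.1 to 48.2%, counting error only), against 53.7% over all merged regions. The 5' UTR share was 6.79% against 4.26%, and the share in other exons 8.33% against 5.18%. The regions on the strand of a gene fell in 147 genes, 127 of them protein coding. Grouped by annotation alone, 15 regions were mitochondrial, 17 lay at Ifih1, 74 others near a gene start, 18 in other exons, 129 in other introns, 31 antisense to a gene and 40 had no gene on either strand.

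The covered length is the number of bases of a region under the peaks of a library, and its mean over the 6 libraries had a median of 139 nt over the shared regions, with quartiles of 81.2 and 378 nt and a range from 19 to 2507 nt. Of the 121 regions under 100 nt, 44 were near gene starts, 26 had no gene on either strand, 23 were intronic and 22 antisense to a gene. Of the 64 regions over 500 nt, 44 were intronic, 9 mitochondrial and 8 without a gene on either strand. The short and the long ones also differed in their overlap with RNase only peaks. No RNase only library overlapped 52 of the 121 short regions and 1 of the 64 long ones, whereas 5 or 6 libraries overlapped 42 of the short and 52 of the long ones. An overlap needs only 1 bp, so a longer region can meet a peak more easily. Shares by length over all merged regions were not computed, so these counts only describe the shared regions.

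**Figure D2:**
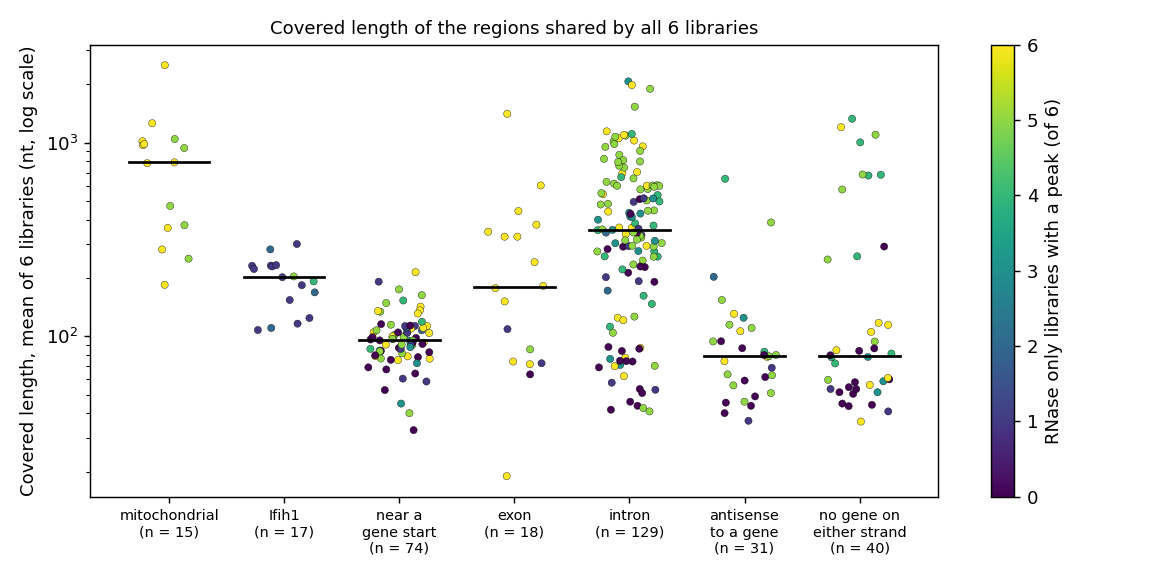
Covered length (nt, log scale) of each of the 324 shared regions, as the mean of 6 MDA5-protected libraries, by annotation group; bars mark group medians and the colour gives the number of RNase only libraries with a peak. Introns hold most of the regions over 500 nt, and regions near gene starts reach at most 280 nt in any library.

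Some peak borders repeated closely between libraries. Covered length agreed within 5 nt across all 6 libraries in 44 regions, and the summits of the strongest peaks fell within 5 nt in 77. The median distance between the outermost summits was 29 nt. A region antisense to Nbl1 at chr4:139092828-139092872 covered exactly 45 nt in each library, although its mean percentile of area was only 17.4. In 309 regions at least 1 base was covered in all 6 libraries. The other 15 were chains in which the peaks of different libraries joined without a common base.

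To rank regions within a library, the area under the significance curve of the strongest peak was turned into a percentile of that library's list, with 100 for the largest area. The mean percentile of the shared regions had a median of 76.2 and a range of 14.5 to 100. Shared regions held 13.6% to 33.1% of the peaks of a library and 73.6% to 87.7% of its summed area. Much of this area came from a single place. A region of 97 nt at chr4:122122998-122123094, antisense to the start of Gm12896, ranked first in each of the 6 libraries and held 44.7% to 55.7% of the summed area. Its covered length was 97 nt in 5 libraries and 85 nt in the third Mavs-/- library, and it overlapped peaks in all 6 Input and 3 RNase only libraries. The next region, at chr1:5170572-5170661 with no gene on either strand, ranked second in all 6 libraries, with peaks in all Input and RNase only libraries.

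All of the 12 regions with the highest mean percentile overlapped an Input peak in all 6 Input libraries. They included regions in mt-Nd5 and mt-Nd6, which encode subunits of respiratory complex I, a region near the start of Bmi1, a Polycomb protein, and a region antisense to Foxo1, a transcription factor of insulin signalling. Pdzd8, which encodes a lipid transfer protein at organelle contacts, was also among them, with a 5' UTR region at chr19:59345755-59345861 that was number 4 by mean percentile. Its covered length was 87, 107 and 81 nt in the editing-deficient libraries and 82, 73 and 73 nt in the Mavs-/- libraries, and the genotypes overlapped. Mpped1, a metallophosphoesterase gene, had 186, 190 and 188 nt against 188, 111 and 201 nt in its 5' UTR, with MDA5-protected peaks on the opposite strand in all 6 libraries. Ppp1r13b, a regulator of p53, was more variable, at 110, 49 and 80 nt against 161, 211 and 68 nt.

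Near gene starts, 74 shared regions (outside Ifih1 and the mitochondrial genome) were short and came from both strands. Their median covered length was 82.5, 91.5 and 91 nt in the editing-deficient libraries and 89, 94.5 and 90 nt in the Mavs-/- libraries. A protein coding gene started within 500 bp of 69 of them. On the strand of a gene starting there lay 38, and 36 lay only on the other strand. No RNase only library overlapped 21 of the 74 (28.4%), against 47.6% of all merged regions near gene starts. Eif3f, shown above, was one of them, with 65, 65 and 67 nt in the editing-deficient and 67, 69 and 72 nt in the Mavs-/- libraries, an Input peak in all 6 libraries and no RNase only peak. Regions antisense to Erf, a transcriptional repressor, and to Dtnbp1, the gene for dysbindin, had the same combination. It occurred in 6 shared regions in all.

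Among those regions, Pdcd7 was protected on both strands in every library and also gave RNase only peaks. The minus-strand region covered 169, 166 and 168 nt in the editing-deficient libraries and 132, 98 and 84 nt in the Mavs-/- libraries, without overlap between the genotypes. On the plus strand the values were 77, 77 and 82 nt against 79, 159 and 83 nt, which overlapped. Eps15, an endocytic adaptor, was likewise shared on both strands, with 102, 98 and 150 nt against 100, 102 and 115 nt on the strand of the gene and 83, 63 and 98 nt against 98, 98 and 101 nt on the other.

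The gene with the most shared regions was Ifih1, which encodes MDA5 itself. It held 17, of which 13 were on its own strand and 4 on the other. All of them lay over exons, and no sense region reached more than 25 nt beyond an exon. Exons 4 to 15 of the 16 in the longest coding transcript were covered from end to end in nearly every MDA5-protected library. The region at exon 11 covered 281 nt in each of the 6 libraries and that at exon 12 covered 154 nt in each. Exons 1 and 2, which encode codons 1 to 208, were without MDA5-protected peaks on both strands. Exon 3 was covered in part in 3 libraries, beginning at codon 230 in the first editing-deficient and the second Mavs-/- library and at codon 216 in the third editing-deficient library. In exon 16 the protected stretch ended 3 to 30 nt past the stop codon, within a 3' UTR of 2111 nt.

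The opposite strand of Ifih1 was protected in all 6 libraries over exons 5, 6, 7 and 14. Exon 7 gave 233 nt there and exon 14, shown above on both strands, 202 nt in each library. Over exon 5 the values separated by genotype, at 161, 154 and 104 nt in the editing-deficient libraries against 231, 226 and 226 nt in the Mavs-/- libraries. Mean percentiles ran from 63.4 to 97.8 on the strand of the gene and from 64.9 to 80.9 on the other.

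No Input library had a peak on any of the 17 regions at Ifih1. In the RNase only libraries 5, 1 and 2 of the 17 had a peak in editing-deficient replicates 1, 2 and 3, and 17, 0 and 2 in Mavs-/- replicates 1, 2 and 3. The first Mavs-/- RNase only library therefore stood apart: it had a sense peak on 15 of the 16 exons, with 3 peaks on exons 1 and 2, which no MDA5-protected library covered. Of the 13 shared regions with an RNase only peak in this library alone, 12 were at Ifih1. The protein added to the MDA5-protected samples came from an Ifih1 cDNA without the CARD part, and whether nucleic acid from that source, rather than liver RNA, gave these peaks was not tested.

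**Figure D3:**
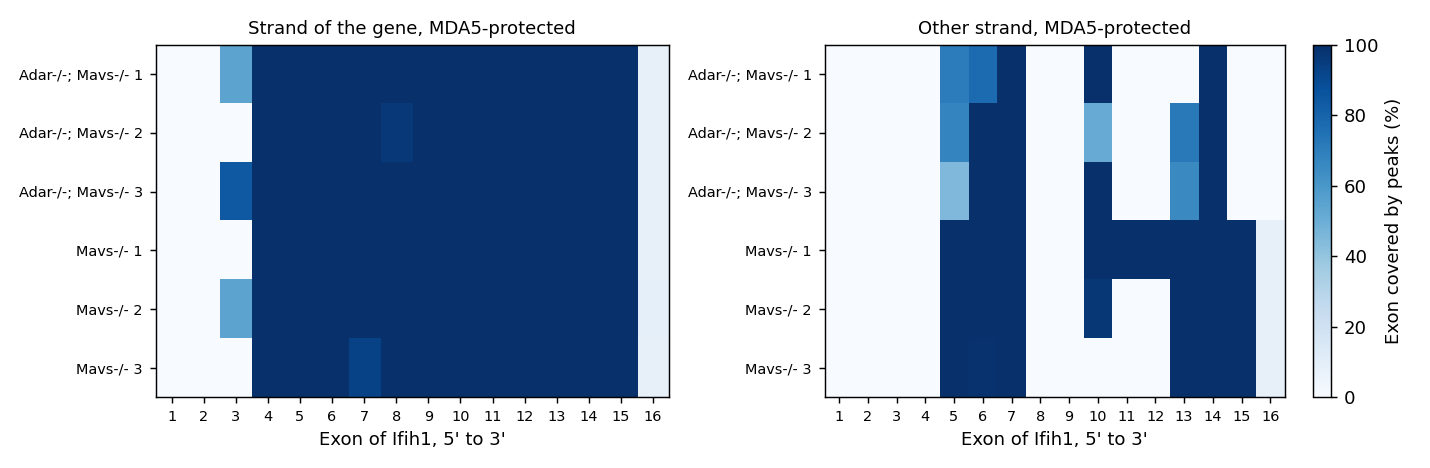
Percentage of each Ifih1 exon (columns, 5' to 3') covered by peaks in each MDA5-protected library (rows), on the strand of the gene (left) and on the other strand (right). Exons 1 and 2 are empty in all 6 libraries, exons 4 to 15 are nearly full on the gene's strand, and the pale exon 16 holds the 3' UTR of 2111 nt.

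The mitochondrial genome, which is transcribed along both strands, held 15 shared regions, 8 on the plus and 7 on the minus strand. This was 46.9% of its 32 merged regions. Over those 32, 100% had an Input peak in at least 1 library, 81.25% an opposite-strand MDA5-protected peak and 3.1% no RNase only peak. Such overlaps were thus common to mitochondrial regions. All 15 shared regions overlapped Input peaks in all 6 libraries and an MDA5-protected peak on the opposite strand, and 10 overlapped RNase only peaks in all 6. Their median covered length was 764, 890 and 781 nt in the editing-deficient libraries and 939, 818 and 668 nt in the Mavs-/- libraries, with overlap between the genotypes. The longest region of all, at MT:6643-10028 on the minus strand, covered 2435, 2898 and 2473 nt against 2921, 2780 and 1535 nt. It ran opposite mt-Co1, mt-Co2, mt-Atp6 and mt-Co3, which encode subunits of complex IV and of ATP synthase.

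Of the 18 regions in other exons, 9 were in 3' UTRs, 5 in 5' UTRs and 4 in other exonic sequence. Apart from Aoc3, an amine oxidase gene, the 3' UTR regions overlapped RNase only peaks in all 6 libraries. They were in Mptx1, a mucosal pentraxin, Car1, a carbonic anhydrase, Oit1, the tetraspanin Tspan1, the mucin Muc13, the mitochondrial creatine kinase Ckmt1, the immunoglobulin transporter Pigr and the guanylin precursor Guca2a. Aoc3 overlapped no RNase only peak. It was the only one of the 18 without such a peak (5.56%), against 25.7% of all merged regions in other exons. The share with peaks in all 6 RNase only libraries was not computed for all merged exonic regions. The 5' UTR regions were those of Mpped1, Memo1, Mier1, Zfp217 and Scn8a, with RNase only peaks in 6, 6, 1, 1 and 5 libraries, and the remaining 4, among them Zeb1 and Mtcl1, had such peaks in all 6. Pigr overlapped Input peaks in 2 libraries, and the other genes with 3' UTR regions in none. Mptx1 covered 641, 685 and 538 nt in the editing-deficient libraries and 684, 519 and 538 nt in the Mavs-/- libraries, and Guca2a 137, 264 and 260 nt against 263, 262 and 263 nt.

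To check the tissue, exonic peaks were counted for 10 hepatocyte genes such as Alb, Apoa1 and Ttr. They were also counted for 24 genes of intestinal epithelium. That list was chosen after the values were seen, so its counts and shares are descriptions and no check. All 10 hepatocyte genes had exonic peaks in each Input library, and none had any in the 12 digested libraries, which were called against Input. Of the 24 intestinal genes, 19 to 22 had exonic peaks in an RNase only library, 8 to 15 in an MDA5-protected library and 1 or 2 in an Input library. Guca2b and Fabp2 had none in any digested library. Genes of this list held 3 of the 18 shared exonic regions (16.7%), against 42 of the 420 merged exonic regions (10%). Those 3, in Car1, Muc13 and Guca2a, were in genes that had exonic peaks in all 12 digested libraries and in no Input library. Red cell, Kupffer cell and endothelial genes (6, 6 and 4) had none in the digested libraries, stellate genes had 0 in MDA5-protected and 1 or 2 of 4 in RNase only libraries, and cholangiocyte genes, which intestine also expresses in part, 1 or 2 and 2 or 3 of 4. In an Input library 4 to 6 of the red cell, 3 or 4 of the Kupffer cell and 0 to 3 of the endothelial genes had exonic peaks. For stellate genes it was 2 or 3 and for cholangiocyte genes 0. Part of these lists thus had no Input peak either, which limits what their absence from digested libraries can show. The part of RNA from another tissue in the 3' UTR regions was not tested.

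**Figure D4:**
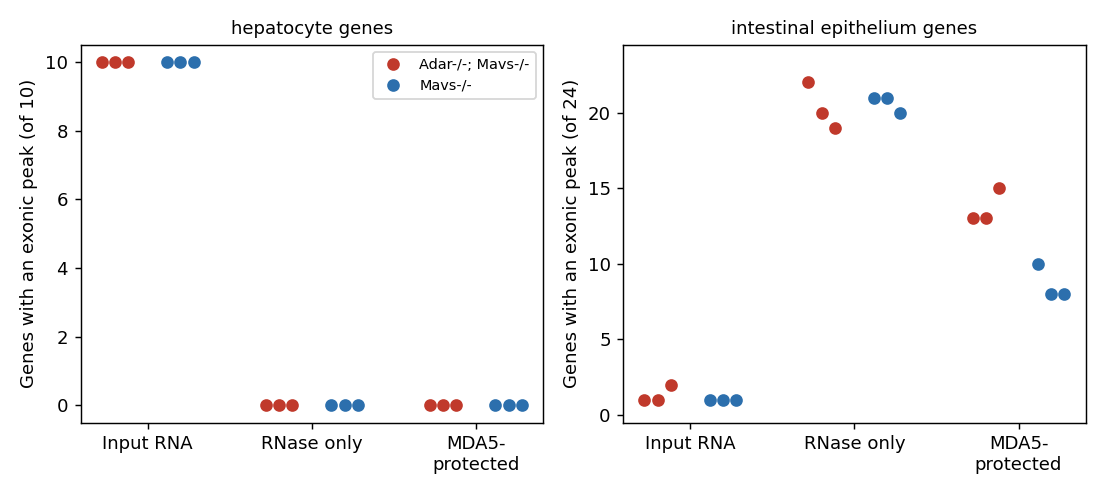
Number of hepatocyte genes (left) and intestinal epithelium genes (right) with at least 1 exonic peak in each library, by RNA fraction; each point is a library, coloured by genotype. Hepatocyte genes appear in Input only, and intestinal genes mainly in the RNase only and MDA5-protected libraries. The intestinal list was chosen after the values were seen.

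Introns held the largest group, 129 regions outside gene starts and Ifih1. Their median covered length was 283, 393 and 383 nt in the editing-deficient libraries and 312, 331 and 298 nt in the Mavs-/- libraries, which overlapped. Input peaks touched 5 of them, against 1.81% of all merged intronic regions. No RNase only library overlapped 21 (16.3%), against 45.1% of all merged intronic regions. Several genes held more than 1 region: 20 genes had at least 2, led after Ifih1 by Dpyd, the first enzyme of pyrimidine breakdown, with 10, Slc22a27, an organic anion transporter, with 7, and Thrb, a thyroid hormone receptor, with 5. Tmlhe, an enzyme of carnitine synthesis on the scaffold GL456233.1, and F8, coagulation factor VIII, had 4 each.

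The intronic regions with the longest coverage showed wide differences between replicates. Sdc2, which encodes a syndecan, covered 2154, 2335 and 1954 nt in the editing-deficient libraries and 1930, 2318 and 1717 nt in the Mavs-/- libraries. The leading F8 region, at chrX:75349140-75351402, covered 1879, 2063 and 2149 nt against 1980, 1704 and 1581 nt and had a mean percentile of 98.7. The longest Dpyd region covered 1678, 2664 and 2232 nt against 1800, 2263 and 1235 nt. In each of these 3 the genotypes overlapped, and no Input library had a peak there. Ube2e2, a ubiquitin-conjugating enzyme gene, had 1116, 1547 and 1428 nt against 1984, 1737 and 1369 nt. RNase only peaks were present at the F8 and Ube2e2 regions in 5 libraries, at Dpyd in 6 and at Sdc2 in 3.

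Outside annotated genes on their strand, 31 regions were antisense to a gene and 40 had none on either strand. Both groups were short, with median covered lengths of 74 to 79 nt and 74.5 to 80 nt per library. No RNase only library overlapped 9 of the 31 (29.0%) and 13 of the 40 (32.5%), against 33.1% and 36.6% of all merged regions of these kinds. In this measure both groups were near the background. Input peaks overlapped 6 of the 31 and 11 of the 40, above the 4.83% and 4.92% of all such merged regions. Among the 40, however, 8 had a mean above 500 nt. One of these, at chr7:26220259-26221245, covered 823, 713 and 931 nt in the editing-deficient libraries and 642, 694 and 252 nt in the Mavs-/- libraries, without overlap.

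The study asked what MDA5 binds when editing is lost, and the shared regions allow peak lengths of the genotypes to be compared over the same sites. For peaks found in both genotypes, the study reported a longer median in editing-deficient samples. It had first removed stretches under RNase only peaks, base by base. Here they were kept, so the covered length is not the length bound by MDA5 and does not test that report. Per library, the median covered length was 133.5, 152.5 and 144 nt in the editing-deficient libraries (mean 143 ± 9.52, SD, n = 3) and 153.5, 153.5 and 142.5 nt in the Mavs-/- libraries (150 ± 6.35, SD, n = 3). The difference of -6.5 nt lay within the spread of the replicates (exact permutation test, two-sided, 3 against 3, p = 0.5, the smallest p that this design allows being 0.1). Of 324 log2 length ratios 169 were above and 142 below 0, with a median of 0.01.

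The median percentile of area was 78.7, 85.1 and 85.7 in the editing-deficient libraries and 81.5, 78.5 and 76.0 in the Mavs-/- libraries, a difference of 4.50 (exact permutation p = 0.2). A percentile depends on the length of the list, and with equal numbers of peaks the difference was -1.81. RNase only peaks overlapped 26.5%, 65.7% and 66.4% of the shared regions in the editing-deficient libraries and 65.4%, 65.1% and 60.2% in the Mavs-/- libraries. The mean difference of -10.7 percentage points (exact permutation p = 1) rested on the first editing-deficient library, and without it the difference was 2.47 points. Input peaks overlapped 13.9%, 13.0% and 13.6% against 16.0%, 11.1% and 14.5% (difference -0.41 points, exact permutation p = 0.8). Adjusted over these 4 comparisons by Benjamini-Hochberg, the p-values of the exact permutation tests were 1 for length, 0.8 for area and 1 for both overlaps.

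**Figure D5:**
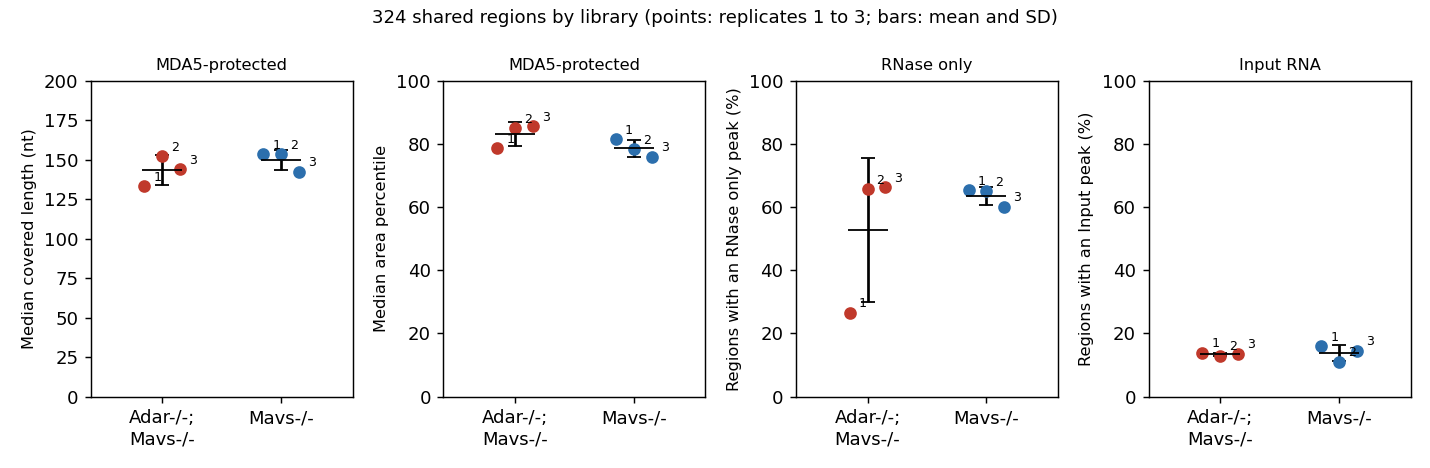
Median covered length (nt), median percentile of area, and the percentages of the 324 shared regions with an RNase only or an Input peak, per library; points are replicates 1 to 3, and bars give the mean and SD of each genotype. The genotypes overlap in all 4 panels, and the first editing-deficient RNase only library lies at 26.5%.

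For single regions, covered length was larger in every editing-deficient library than in every Mavs-/- library at 13 of 324 (4.01%) and smaller at 10 (3.09%). Over all merged regions, which include those without a peak in one genotype, the shares were 4.15% and 1.43%. Regions with a peak in 1 or 2 libraries, 2243 and 1000 of them, cannot separate in this way, which lowers both shares. The shares over all merged regions are therefore no background for the shared regions, and no difference is read from them. With any 1 replicate left out, 23 to 53 regions were longer and 22 to 41 shorter. Fewer libraries then have to separate and more regions qualify, so this rise does not show whether the counts depended on single libraries. Among the longer ones the largest log2 ratios were 0.89 at an intron of the pseudogene Cyp2d38-ps (461, 540 and 600 nt against 242, 376 and 257 nt), 0.76 at chr7:26220259-26221245, 0.71 on the minus strand of Pdcd7 and 0.60 in the 3' UTR of Car1 (342, 440 and 380 nt against 316, 165 and 318 nt). Cyp2d38-ps has close relatives in the Cyp2d cluster, so its reads may be shared with them. Among the 10 shorter ones, the most negative ratios were -0.92 at an exon near the start of Dmwd, a WD-repeat protein gene (63, 97 and 63 nt against 174, 106 and 142 nt), -0.79 antisense to Selenon, a selenoprotein gene, -0.73 antisense to exon 5 of Ifih1 and -0.59 in the 5' UTR of Atrnl1.

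The RNase only fraction overlapped most of the shared regions: 259 of 324 had such a peak in at least 1 library and 74 (22.8%) in all 6, against 6.6% of all merged regions. The remaining 65 (20.1%) had none, against 40.8% of all merged regions. At those 74, the median length of the overlapping peaks was 161.5 to 181 nt per MDA5-protected library and 140 to 198.5 nt per RNase only library, and their median percentile in the RNase only lists was 95.5 to 97.2, except for 67.6 in the first editing-deficient library. Of the 65 without an RNase only peak, 54 had no Input peak either. No region had RNase only peaks in all 3 libraries of a genotype and in none of the other. That count was not made over all merged regions, so it only describes the shared ones. RNase only peaks in editing-deficient libraries alone occurred at 8 regions (2.47%, against 14.0% of all merged regions) and in Mavs-/- libraries alone at 30 (9.26%, against 6.83%). Of those 30, 13 had a peak in the first Mavs-/- library alone, 12 of them at Ifih1, and the first editing-deficient library overlapped few shared regions.

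Of the gene lists examined, interferon-stimulated genes and sensors of double-stranded RNA had 13 shared regions (4.01%), all in Ifih1, against 0.31% of merged regions. Cytochrome P450 genes had 5 of 324 regions (1.54%), against 2.08% of merged regions, and zinc finger genes 5 (1.54%), against 1.03%. Liver secreted proteins had 1 (0.31%), in Gc, the vitamin D binding protein, against 0.10%. Small structured RNA genes had 3 (0.93%), all mitochondrial tRNA genes, against 0.13%. The lists of urea cycle, ribosomal protein and long noncoding genes had 0. Those lists held only 2, 4 and 0 of the 4770 merged regions, so their counts say nothing of the shared ones. Adar and Mavs had no MDA5-protected peak on their strand. Rnf168, Knl1 and Zkscan3, from which the study transcribed RNAs for its binding assays, had such peaks in 3, 5 and 3 of the 6 libraries and held no shared region.

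Just outside the selection were 285 regions with a peak in exactly 5 libraries. The missing library was the first editing-deficient library for 72 of them, editing-deficient replicates 2 and 3 for 11 and 15, and Mavs-/- replicates 1, 2 and 3 for 58, 65 and 64. The best of them, at chr3:31448268-31448365, had a mean percentile of 99.8 over 5 libraries and no peak in the first Mavs-/- library. A Mbd5 intron lacked a peak in the second Mavs-/- library and covered 534, 380 and 549 nt in the editing-deficient and 521 and 524 nt in the other Mavs-/- libraries. The median mean percentile was 60.3 for regions of 5 libraries, with a range of 7.41 to 99.8. Inside the selection, the lowest mean percentiles were 14.5 at chr1:182231095-182231175, 17.4 antisense to Nbl1 and 17.6 antisense to Ube2e2.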

How the data were processed

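Liver RNA of 18 libraries (2 genotypes, 3 fractions, 3 replicates) was represented by one peak list per library. According to the methods, the authors trimmed reads (Trim Galore 0.6.6), aligned them to GRCm38 (NextGenMap) and called peaks strand by strand (Genrich 0.6.1), digested libraries against Input of the same genotype. The deposited peak score is the area under the significance curve, from 500.008 upwards. It grows with depth and was used only within a library. The −log10 adjusted P-values deposited by the authors were 3.12 or more and entered no test.

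Peaks sharing at least 1 bp were merged (Python 3.11.15, numpy 2.4.6, scipy 1.17.1). Classes came from GENCODE M21, exonic before intronic before intergenic. Genotypes were compared by exact permutation over libraries. Regions were named by rank, length, length ratio, RNase only overlap, class, and several regions per gene. Steps were tested on simulated data. The regions and lists were chosen with earlier results of these data known. Start positions count from 1. Sequence outside transcripts and promoter windows, which leaves out most intronic regions, and inverted repeats were not analysed here, and all 18 libraries were used.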

Additional observations from a re-analysis of the deposited data

How the results depend on the processing

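Differences are editing-deficient minus Mavs-/-, and the exact permutation test used cannot go below p = 0.1 with 3 against 3 libraries. Of 116 recomputed values, 10 turned their direction or became 0 and 21 moved beyond their limits. The other 85 did neither, although some differences shrank or grew, as the length difference did to -0.83 nt when gaps of up to 200 bp were bridged. With only peaks of an area of at least 1000, 99 regions remained, 24 without an RNase only peak and 29.3% intronic, with 6 longer and 3 shorter in every editing-deficient library, and the length difference was 11.7 nt. With equal numbers of the strongest peaks per library the length difference was 5 nt, the percentile difference -1.81, and there were 41 regions without an RNase only peak and 8 longer ones. Bridging those gaps gave an Input difference of 0.105 points. Ignoring strand gave 0 points and 53.2% intronic. Using means gave a length difference of 12.9 nt.

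Leaving out each replicate in turn gave 336 to 397 regions, length differences of -9.17 to 3.67 nt, percentile differences of 3.44 to 8.21, RNase only differences of -17.1 to 3.02 points, Input differences of -1.28 to 0.566 points, 65 to 106 regions without an RNase only peak (the lowest with only an RNase only library left out), 23 to 53 longer and 22 to 41 shorter regions. Leaving out single RNase only libraries, or the mitochondrial and Ifih1 regions, was chosen after seeing the data. Without those regions the 4 differences kept their signs. Without the first editing-deficient RNase only library the RNase only difference was 2.47 points.

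Same-numbered samples did not deviate together (correlations -0.10, -0.10 and 0.05). With 3 replicates such weak values cannot show that samples of a number were handled apart, so pairing was not seen but is not excluded. With the replicate block the differences were -6.5 nt, 4.50, -10.7 points and -0.41 points (exact sign-flip p = 0.75, 0.5, 1 and 0.75, smallest possible 0.25). Unknown read depth limits every absence of a peak.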
